A study of Mus musculus with 58 samples.

Results

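The data describe 42 DNA repair genes in single blood progenitor cells of the mouse. They are 8 genes of the Fanconi core complex, 2 of the Fanconi ID2 complex (Fancd2 and Fanci), 12 of homologous recombination, 5 of end joining, 2 of mismatch repair, 3 of nucleotide excision repair, 6 of base excision and single-strand break repair and 4 checkpoint kinases. The genes were named by pathway and kept where the table held any count for them, which left 42 of 23152 listed symbols, of which 12887 had a count in some cell.

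DNA repair works by division of labour. The Fanconi core complex, recruited to DNA by Fancm, adds ubiquitin to the ID2 complex at crosslinked DNA, and homologous recombination then mends the break by copying an intact sister strand. Broken ends can instead be rejoined directly by the Ku proteins and their ligase, while mismatch and excision repair remove wrong or damaged bases from 1 strand. In blood-forming tissue the Fanconi pathway is best known from Fanconi anaemia, in which its loss ends in bone marrow failure, and recombination by sister copying is tied to S and G2 phase, which quiescent stem cells seldom enter.

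Single cells were sorted from the bone marrow of wild type C57BL/6 mice, and each was sequenced at the 3' ends of its transcripts. Long-term haematopoietic stem cells (LT-HSC, 34 cells) were gated as Lin- cKit+ Sca1+ Flt3- CD34-, and common myeloid progenitors (CMP, 24 cells) as Lin- cKit+ Sca1- CD16/32- CD34+. Neither gate carried a transgene or a treatment, and no label gives an age or says how many animals the cells came from. The LT-HSC are treated both as 1 pool and as the 16 cells numbered 1 to 16 and the 18 cells numbered 17 to 34, a division that no label gives and that was chosen after values of these data had been seen.

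Each gate is therefore 1 sample, so there is no test of a difference between them, and the intervals given are exact 95% intervals of counting error alone. Total counts ran from 45022 to 860553 per LT-HSC and from 88329 to 706184 per CMP, and summed to 3410149 in LT-HSC 1 to 16, 6520982 in LT-HSC 17 to 34 and 7062737 in CMP. Levels are given in CPM, the counts of a gene scaled to a common total of its pool, and 3 counts, the limit that a count of 0 allows, were worth 0.880, 0.460 and 0.425 CPM. All 10 stem cell markers examined had 2-fold or more the CMP level in LT-HSC (median log2 ratio 2.58). For LT-HSC 17 to 34 alone this held for 6 of the 8 with enough counts, while Slamf1 (-0.04) and Mllt3 (-0.80) did not, and Hoxb5 had no count. The granulocyte and monocyte genes had a median of 5.74, 11.1 and 60.2 per 10000 counts of a cell in LT-HSC 1 to 16, LT-HSC 17 to 34 and CMP. The B cell genes Ms4a1 and Pax5 and the T cell genes Cd3d, Cd3e, Cd3g, Cd4 and Cd8a had no count in any pool. Of the same lists, the B cell gene Cd79b had 58.6, 92.3 and 47.1 CPM in LT-HSC 1 to 16, LT-HSC 17 to 34 and CMP, and Nkg7, a cytotoxic granule gene, 2.35, 530.1 and 426.7 CPM, so that Nkg7 moved with the difference between the LT-HSC sets and its part in it was not tested. All 9 mature neutrophil genes had counts in every pool. Xist, the RNA of the inactive X chromosome of female cells, was seen in none of 34 LT-HSC but in 22 of 24 CMP, so gate and sex cannot be told apart.

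The summed level of the repair genes was lowest in LT-HSC 1 to 16. All 42 together amounted to 516 CPM there, 1212 CPM in LT-HSC 17 to 34 and 1336 CPM in CMP. Base excision and single-strand break repair made up the largest share of the gap between LT-HSC 1 to 16 and the other pools. Its sums were 73.9, 567 and 489 CPM, with the highest level in LT-HSC 17 to 34. Much of this was Lig1, which made up 55.6% of the list's counts in LT-HSC 17 to 34 and 44.5% in CMP. Parp1, Ung and Xrcc1 were also lowest in LT-HSC 1 to 16, but Ogg1 and Lig3 were highest there. Only 3 cells, numbers 33, 18 and 17, supplied 65.6% of the list's counts in LT-HSC 17 to 34. Homologous recombination with the Fanconi genes made up the next share, at 97.1, 303 and 401 CPM. End joining (146, 181 and 128 CPM), nucleotide excision repair (95.6, 67.2 and 123 CPM) and the checkpoint kinases (78.9, 56.3 and 136 CPM) were not lowest in LT-HSC 1 to 16, since CMP had the lowest level of the first list and LT-HSC 17 to 34 that of the others.

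**Figure D1:**
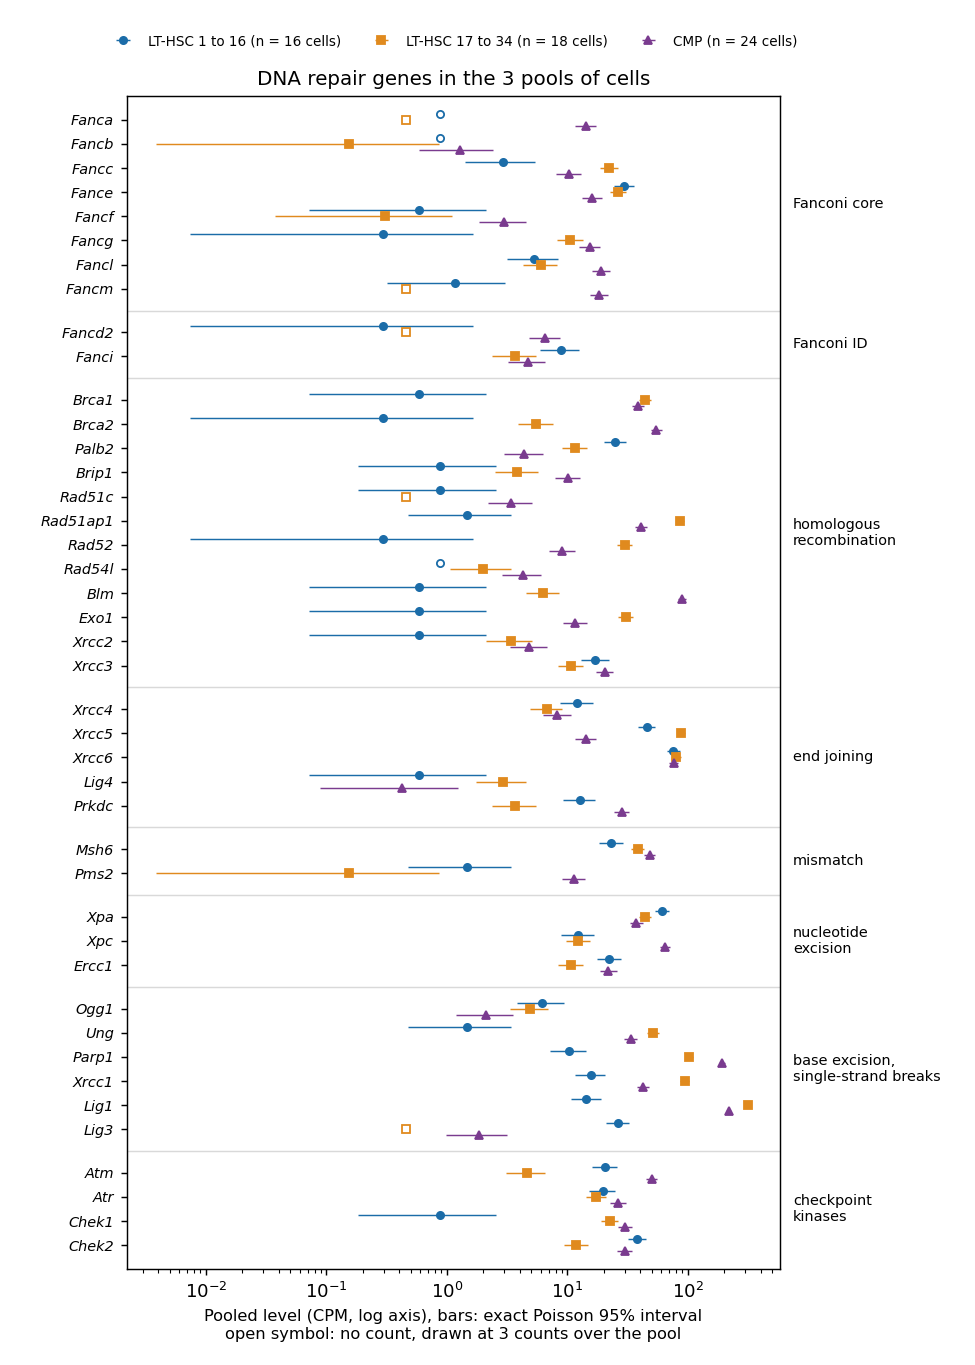
Pooled level (CPM, log axis) of each of the 42 repair genes in LT-HSC 1 to 16, LT-HSC 17 to 34 and CMP, grouped by pathway. Bars are exact 95% Poisson intervals and open symbols stand at the limit that a count of 0 allows. Lig1 lies at 14.4 CPM in LT-HSC 1 to 16 and at 315 and 218 CPM in the other pools, while the 3 points of Xrcc6 lie together between 75.7 and 79.7 CPM.

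A gene was counted as higher in a pool where its levels differed at least 2-fold and the pair of pools held 20 counts or more. Genes with few counts can meet that rule only through the pool in which they are high, so the shares below describe these libraries and are set beside the same share of all genes. In LT-HSC against CMP, 41 of the 42 had enough counts, 6 were higher in LT-HSC (14.6%) and 16 in CMP (39.0%), against 22.7% and 28.1% of all 10937 genes with as many counts. Their median log2 ratio was -0.54, against -0.13 over all genes. In LT-HSC 1 to 16 against CMP, 4 of 40 were higher in the stem cells (10.0%) and 27 in CMP (67.5%), against 21.9% and 37.1% of all genes, and the median was -1.93 against -0.36. In LT-HSC 17 to 34 against CMP, 9 of 40 were higher in the stem cells (22.5%) and 16 in CMP (40.0%), shares near the background of 20% and 34%, with a median of -0.51 against -0.24. Within the LT-HSC gate, LT-HSC 1 to 16 had the higher level for 7 of 34 (20.6%) and LT-HSC 17 to 34 for 16 (47.1%), against 26.8% and 29.5% of all genes, with a median of -0.84 against -0.10. The 3 comparisons with CMP share the same 24 CMP cells, and those with LT-HSC share cells too, so they do not repeat one another.

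These counts were taken again with cells thinned to 1 depth and against the CMP without an Xist count alone. The cause of any shift was not tested. With every cell of enough depth thinned to 97978 counts, 17 of 33 repair genes were higher in CMP than in LT-HSC 1 to 16, at a median of -1.0, against 33.3% of all genes and a median of -0.25. The thinned cells of LT-HSC 17 to 34 gave against CMP a lower median than the full counts, -1.11 against -0.16 over all genes, with 17 of 32 higher in CMP and 5 in the stem cells, against 30.2% and 18.9% of all genes. Against CMP 1 and CMP 2 alone, the only CMP without an Xist count, the median ratio of the repair genes was 0.67 for all LT-HSC, -0.19 for LT-HSC 1 to 16 and 0.96 for LT-HSC 17 to 34, and that of all genes was 0.91, 0.50 and 0.65. Set against these 2 cells, Fancg (0.29), Brca2 (0.47), Brip1 (1.30) and Atm (2.38) were higher in LT-HSC on the log2 scale, the reverse of the full comparison, with 29 to 102 counts behind each. CMP 2 had the lowest repair share of all CMP, 1.96 per 10000 counts, whereas CMP 1 had 18.4, above the CMP median of 12.9.

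In single cells the same genes were scarce in most LT-HSC of both sets and common in most CMP. They took a median of 4.93 per 10000 counts of a cell in LT-HSC 1 to 16 (0.393 to 11.3), 7.55 in LT-HSC 17 to 34 (2.40 to 27) and 12.9 in CMP (1.96 to 28.3). The 3 ranges overlap, and the highest cells of LT-HSC 17 to 34 reach those of CMP. The genes of homologous recombination and the Fanconi pathway alone had medians of 0.246, 0.811 and 4.05 per 10000. A median of 8.5, 9 and 23.5 of the 42 genes had a count per cell, and after thinning 6.5, 6 and 16. Thinned cells had counts of 3379, 3031 and 5478.5 genes of any kind at the median, so per 1000 genes seen the repair genes numbered 1.80, 2.26 and 3.0.

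**Figure D2:**
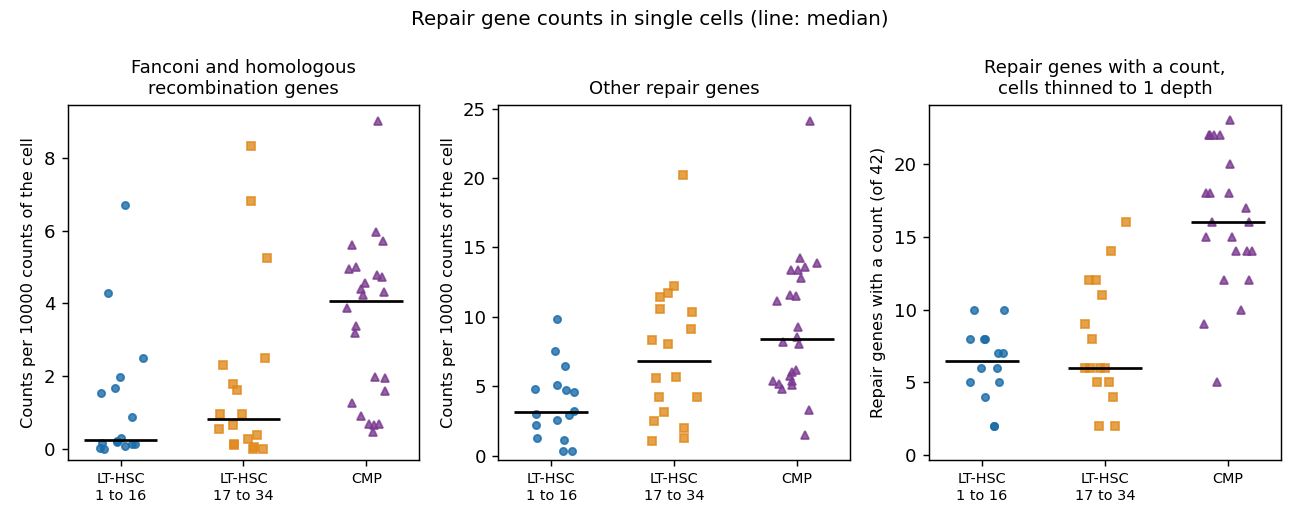
Each point is 1 cell, with the pool's median as a line: the share of counts (per 10000) of the homologous recombination and Fanconi genes, the same for the other repair genes, and how many of the 42 genes had a count after thinning to 97978 counts. CMP have the highest median in all 3 panels, at 4.05 per 10000, 8.39 per 10000 and 16 genes, and the ranges of the 3 pools overlap.

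A few cells held much of the signal. LT-HSC 33, LT-HSC 18 and LT-HSC 34 held 59.9% of the repair counts of LT-HSC 17 to 34, though only 37.1% of all its counts. LT-HSC 1, LT-HSC 16 and LT-HSC 15 held 40.9% of those of LT-HSC 1 to 16 with 27% of its counts, and CMP 1, CMP 4 and CMP 3 held 34.1% of those of CMP with 23.3%. Among the repair genes with at least 20 counts in a pool, 14 of 20 had most of their counts in a single cell in LT-HSC 1 to 16 (70.0%, against 47.7% of all such genes), 23 of 32 in LT-HSC 17 to 34 (71.9%, against 48.2%) and 9 of 38 in CMP (23.7%, against 20.2%). The lowest cell of every pool was at 0 CPM for each of the 42, except for Parp1 and Lig1 in CMP. The median cell was at 0 as well for all but Lig1, Parp1, Xrcc6, Xrcc5 and Xpa in LT-HSC 1 to 16, and for all but Lig1, Parp1, Xrcc6, Xrcc5 and Xrcc1 in LT-HSC 17 to 34. Each ratio was therefore taken again without each cell in turn. This was done for the repair genes alone, so the counts that follow have no share of all genes beside them. Genes of any kind also had most of their counts in a single cell more often in the LT-HSC sets than in CMP, by the shares above. Of the 16 genes higher in CMP than in LT-HSC, 9 stayed at least 2-fold higher whichever cell was left out, namely Fancl, Fancm, Brca2, Blm, Prkdc, Pms2, Xpc, Parp1 and Atm. Of the 6 higher in LT-HSC, Xrcc5 alone did. In LT-HSC 1 to 16 against CMP 18 of 27 stayed higher in CMP, and Xrcc5 and Lig3 of 4 in LT-HSC 1 to 16. In LT-HSC 17 to 34 against CMP 8 of 16 stayed higher in CMP, and Xrcc5 of 9 in LT-HSC 17 to 34. Within the gate 11 of 16 stayed higher in LT-HSC 17 to 34 (Fancc, Brca1, Rad51ap1, Rad52, Blm, Exo1, Ung, Parp1, Xrcc1, Lig1 and Chek1), and Atm of 7 in LT-HSC 1 to 16.

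**Figure D3:**
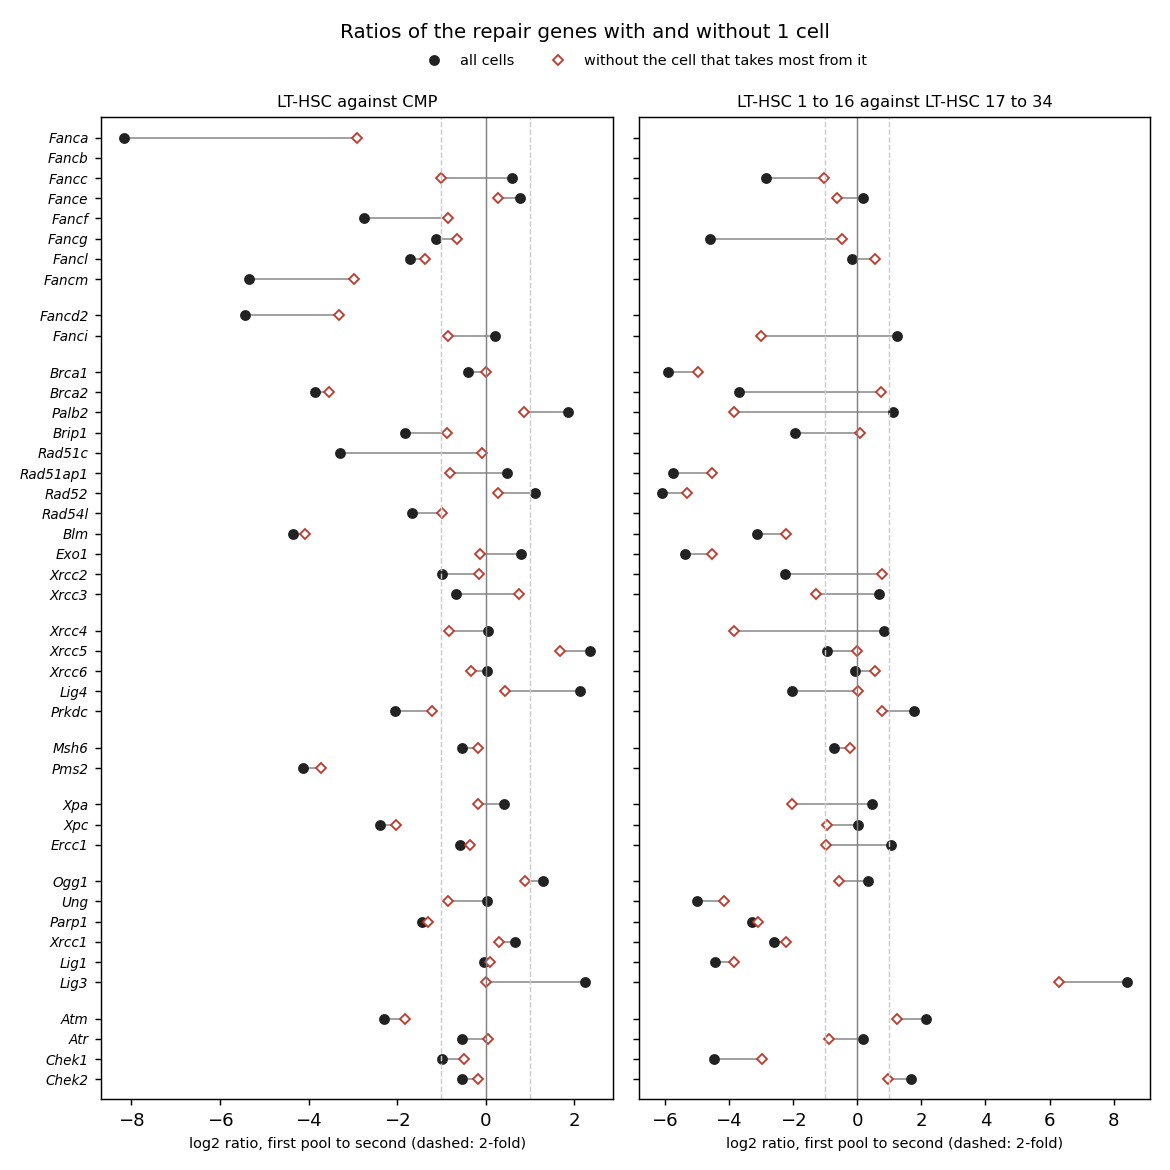
Log2 ratio of each repair gene with at least 20 counts over both pools, in LT-HSC against CMP and in LT-HSC 1 to 16 against LT-HSC 17 to 34. Filled dots use every cell and open diamonds leave out the cell that takes most from the ratio, and where a pool had no count (Fanca in the first panel, Lig3 in the second) the dot depends on the added 0.5 count. Palb2, for one, goes from 1.11 to -3.83 in the second panel, whereas Parp1 is at -3.29 with all cells and at -3.08 without 1 cell.

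Promoter sequences are shown only for genes that held 1 of the sites searched below, picked from either side of this contrast. Lig1, Brca2 and Fancg had their lowest pooled level in LT-HSC 1 to 16 (for Brca2 and Fancg, LT-HSC 17 to 34 was above it through 1 cell), Xrcc6 was level over the 3 pools and Chek2 was at its highest in LT-HSC 1 to 16, and the RefSeq promoter of each holds an E2F-type site, the DNA element through which E2F factors control S phase genes. Each sequence runs 5' to 3' on the gene's strand from 250 bases before to 50 bases after the RefSeq start (build GRCm38.p6), with the site in capitals: chr7:13278576-13278875 (plus strand, the second of 3 starts of this gene), chr5:150522371-150522670 (plus), chr4:43010252-43010551 (minus), chr15:82016119-82016418 (plus) and chr5:110839733-110840032 (plus).

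Lig1: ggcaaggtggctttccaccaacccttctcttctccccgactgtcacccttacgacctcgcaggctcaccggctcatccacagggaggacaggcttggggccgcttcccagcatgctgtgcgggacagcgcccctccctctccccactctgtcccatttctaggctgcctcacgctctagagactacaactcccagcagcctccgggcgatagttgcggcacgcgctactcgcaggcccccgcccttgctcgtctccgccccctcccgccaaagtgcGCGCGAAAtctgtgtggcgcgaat

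Brca2: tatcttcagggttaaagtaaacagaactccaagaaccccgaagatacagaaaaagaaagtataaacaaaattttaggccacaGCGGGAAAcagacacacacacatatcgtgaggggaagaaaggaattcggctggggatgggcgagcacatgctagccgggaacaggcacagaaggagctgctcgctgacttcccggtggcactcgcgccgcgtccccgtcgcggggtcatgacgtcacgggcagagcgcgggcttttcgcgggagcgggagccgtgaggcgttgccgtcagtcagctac

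Fancg: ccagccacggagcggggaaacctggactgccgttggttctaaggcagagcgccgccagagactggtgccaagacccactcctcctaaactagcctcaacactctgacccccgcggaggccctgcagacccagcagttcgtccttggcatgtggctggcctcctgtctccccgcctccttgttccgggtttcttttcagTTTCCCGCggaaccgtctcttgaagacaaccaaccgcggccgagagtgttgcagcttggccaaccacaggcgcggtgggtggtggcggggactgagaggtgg

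Xrcc6: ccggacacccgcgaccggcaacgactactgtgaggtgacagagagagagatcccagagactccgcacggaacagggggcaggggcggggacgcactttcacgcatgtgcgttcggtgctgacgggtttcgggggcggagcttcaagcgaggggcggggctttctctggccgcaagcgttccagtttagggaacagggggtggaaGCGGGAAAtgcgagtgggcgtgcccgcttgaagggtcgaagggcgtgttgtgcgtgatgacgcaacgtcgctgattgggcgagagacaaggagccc

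Chek2: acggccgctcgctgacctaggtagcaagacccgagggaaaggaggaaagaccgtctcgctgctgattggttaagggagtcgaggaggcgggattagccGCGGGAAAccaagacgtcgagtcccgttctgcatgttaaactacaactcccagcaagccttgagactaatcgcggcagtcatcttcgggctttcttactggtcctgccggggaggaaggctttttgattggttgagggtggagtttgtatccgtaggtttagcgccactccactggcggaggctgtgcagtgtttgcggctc

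The sites searched were TTTGGCGC, TTTCGCGC and TTTCCCGC, on both strands. Lig1 holds the second of these on the other strand, from base 26 after its start. The other 4 hold TTTCCCGC, with its first base at -168 in Brca2, -52 in Fancg, -46 in Xrcc6 and -152 in Chek2. Of the 42 genes, 37 had an entry, and 7 of these (18.9%) held 1 of the 3 sites, namely Msh6 and Rad51c beside those shown, against 2.12% of 27025 genes and 1.84% of 32851 promoters. The GC box GGGCGG was found in 26 of the 37 (70.3%, against 38.2% of genes), the CCAAT box CCAAT in 22 (59.5%, against 41.1%) and the cell cycle homology site TTTGAA in 0 (against 20.2%). Of the 11 genes that stayed higher in LT-HSC 17 to 34 than in LT-HSC 1 to 16 without any 1 cell, Lig1 alone held a match. It did so at only 1 of its 3 starts, and Exo1 had no entry. A match to 1 of the 3 sites thus lies in the promoters of some genes whose pooled levels differed and in that of Xrcc6, whose level did not. A match is a description of these letters and no evidence of binding.

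Most Fanconi core genes with enough counts were lower in LT-HSC than in CMP. Of 7, CMP had the higher level for 5 and LT-HSC for 0, against 28.1% and 22.7% of all genes, and the list's median log2 ratio was -1.72. In LT-HSC 1 to 16 against CMP 6 of 7 were higher in CMP (37.1% of all genes) at -2.05, and in LT-HSC 17 to 34 against CMP 4 were higher in CMP and 1 in the stem cells (34% and 20% of all genes) at -1.65. All 8 summed to 39.9, 65.5 and 97.6 CPM in LT-HSC 1 to 16, LT-HSC 17 to 34 and CMP.

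Fancm (chr12:65075603-65132058, GENCODE M21 on mm10) is the translocase that brings the core complex to stalled forks. It stood at 1.17 CPM (0.320 to 3) in LT-HSC 1 to 16, no count (at most 0.566 CPM) in LT-HSC 17 to 34 and 18.4 CPM (15.4 to 21.9) in CMP, where brackets hold the 95% interval, with a count in 2 of 16, 0 of 18 and 12 of 24 cells of the 3 pools in that order. The highest cell of each pool was at 9.27, 0 and 231 CPM. CMP 4 held 82.3% of the CMP counts. The log2 ratio of LT-HSC against CMP was -5.35 (-7.41 to -4.12), again with its interval, and -2.97 without that cell. The lower level in LT-HSC thus did not rest on that cell, although its size did.

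Fancl (chr11:26386135-26471876), the ubiquitin ligase subunit that modifies the ID2 complex, had 5.28 CPM (3.13 to 8.34) in LT-HSC 1 to 16, 5.98 CPM (4.25 to 8.18) in LT-HSC 17 to 34 and 18.97 CPM (15.9 to 22.5) in CMP. Its counts came from 3 of 16, 5 of 18 and 15 of 24 cells, and the highest cells were at 76.8, 42.9 and 103 CPM. The median CMP had 5.20 CPM, the median LT-HSC of either set 0. Its LT-HSC to CMP ratio was -1.72 (-2.20 to -1.27), and ran from -2.16 to -1.38 as single cells were left out. In CMP no cell held over 24.6% of its counts.

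Fancg (chr4:43002343-43010506), a core subunit that binds Fanca, had 0.293 CPM (0.00742 to 1.63) in LT-HSC 1 to 16, 10.6 CPM (8.23 to 13.4) in LT-HSC 17 to 34 and 15.3 CPM (12.54 to 18.5) in CMP. It had a count in 1 of 16, 4 of 18 and 15 of 24 cells, at up to 4.10, 79.6 and 92.1 CPM. LT-HSC 33 held 95.7% of the counts of its set. Without that cell the ratio of LT-HSC against CMP went from -1.11 to -4.96, and that of LT-HSC 1 to 16 against LT-HSC 17 to 34 from -4.60 to -0.48. The difference inside the LT-HSC gate was thus a matter of 1 cell. The ratio of LT-HSC against CMP, just past 2-fold, was -0.65 without CMP 4, while that of LT-HSC 1 to 16 against CMP was -5.13 (-11.02 to -3.20) and at most -4.66 without any 1 cell.

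Fanca (chr8:123268300-123318576), the core subunit most often mutated in Fanconi anaemia, was not counted in any LT-HSC, 34 in all, and had 14.3 CPM (11.6 to 17.4) in CMP. Set against the limit of 3 counts over the LT-HSC pool, it was at least 47.3-fold higher in CMP. CMP 19 held 98.02% of its counts, at 229.9 CPM, so only 2 of 24 CMP had any.

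Fancc (chr13:63285043-63497278), another core subunit, had 2.93 CPM (1.41 to 5.39) in LT-HSC 1 to 16, 22.2 CPM (18.8 to 26.2) in LT-HSC 17 to 34 and 10.3 CPM (8.10 to 13) in CMP. It was counted in 1 of 16, 4 of 18 and 10 of 24 cells, with highest cells at 76.9, 343 and 127 CPM. LT-HSC 22 held 73.1% of the counts of LT-HSC 17 to 34, and without it the ratio of that set against CMP turned from 1.10 to -0.71. Its ratio within the gate, -2.86, was -1.05 without the same cell. Of the remaining core genes, Fance had 29.6, 26.2 and 16 CPM in the 3 pools, Fancf 0.586, 0.307 and 2.97 CPM, and Fancb, which lies on the X chromosome, 0, 0.153 and 1.27 CPM from 10 counts in all.

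The ID2 pair had few counts. Fanci (chr7:79391929-79450264) had 8.80 CPM (5.94 to 12.6) in LT-HSC 1 to 16, 3.68 CPM (2.36 to 5.48) in LT-HSC 17 to 34 and 4.67 CPM (3.22 to 6.56) in CMP in 2 of 16, 2 of 18 and 11 of 24 cells. Its highest cells were at 143, 27.7 and 91.9 CPM, and 1 cell held 96.7% of the counts in LT-HSC 1 to 16 (LT-HSC 7) and 95.8% in LT-HSC 17 to 34 (LT-HSC 33). Without LT-HSC 7 the ratio within the LT-HSC gate turned from 1.25 to -3.01. In CMP the counts were spread over 11 cells with a median of 0. Fancd2, the partner of Fanci, had 1 count in LT-HSC 1 to 16, 0 in LT-HSC 17 to 34 and 46 in CMP, of which 80.4% were in CMP 1.

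Homologous recombination genes were low in LT-HSC 1 to 16. Of 12 genes 10 were higher in CMP and 1 in LT-HSC 1 to 16, against 37.1% and 21.9% of all genes, at a median log2 ratio of -4.18 over the list, or -3.65 with the genes that had no count in 1 pool set at their bound of 3 counts. In LT-HSC 17 to 34 against CMP the counts were 5 and 4 of 12, at -0.71. The 5 (41.7%) are close to the 34% of all genes, and the 4 stand against 20% of all genes. Within the LT-HSC gate LT-HSC 17 to 34 had the higher level for 8 of 10 and the other set for 1, against 29.5% and 26.8% of all genes, at -3.39.

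Brca2 (chr5:150522630-150570329) is a mediator of recombination at single-stranded DNA. It had 0.293 CPM (0.00742 to 1.63) in LT-HSC 1 to 16, 5.52 CPM (3.87 to 7.64) in LT-HSC 17 to 34 and 54.7 CPM (49.3 to 60.4) in CMP, with a count in 1 of 16, 2 of 18 and 17 of 24 cells. The highest cells were at 3.58, 42.2 and 234 CPM and the median CMP at 10.47 CPM. LT-HSC 33 alone held 97.2% of the counts of its set, and the ratio of LT-HSC against CMP was -3.86 (-4.40 to -3.39) with it and -7.64 without it. Leaving out CMP 20 gave -3.54, the smallest difference that any 1 cell left. Apart from that cell, Brca2 was nearly uncounted in both LT-HSC sets, and within the gate the ratio moved from -3.67 to 0.74 when it was left out.

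Blm (chr7:80454733-80535119), the helicase that dissolves crossed strands, had 0.586 CPM (0.0710 to 2.12) in LT-HSC 1 to 16, 6.29 CPM (4.51 to 8.53) in LT-HSC 17 to 34 and 89.9 CPM (83.1 to 97.2) in CMP. Cells with a count numbered 2 of 16, 2 of 18 and 20 of 24, and the highest cells were at 8.91, 162 and 369 CPM, with a CMP median of 15 CPM. In LT-HSC against CMP the ratio was -4.36 (-4.86 to -3.93), and it ran from -5.25 to -4.09 without single cells. All but 4 of 34 LT-HSC were at 0, against 4 of 24 CMP, so the groups overlap only at the low end and through a few LT-HSC.

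Brip1 (chr11:86058138-86201193), a helicase that binds Brca1, had 0.880 CPM (0.181 to 2.57) in LT-HSC 1 to 16, 3.83 CPM (2.48 to 5.66) in LT-HSC 17 to 34 and 10.1 CPM (7.85 to 12.7) in CMP. It was seen in 3 of 16, 4 of 18 and 14 of 24 cells, at 6.37, 24.1 and 111 CPM in the highest. LT-HSC against CMP gave -1.82 (-2.52 to -1.18), and less than 2-fold, -0.88, without CMP 7, which held 50.7% of the CMP counts. Within the gate it moved from -1.93 to 0.09 without LT-HSC 33. In LT-HSC 1 to 16 against CMP it was -3.30, and -2.36 without CMP 7.

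Brca1 (chr11:101488764-101551955), the ubiquitin ligase that starts end resection with Bard1, differed between the LT-HSC sets in pooled level and between the gates in the number of cells. It had 0.586 CPM (0.0710 to 2.12) in LT-HSC 1 to 16, 44.01 CPM (39.1 to 49.4) in LT-HSC 17 to 34 and 38.5 CPM (34.1 to 43.4) in CMP. Counts were found in 1 of 16, 5 of 18 and 19 of 24 cells, and the highest cells were at 7.16, 182 and 214 CPM. LT-HSC 18 held 54.7% of the counts of LT-HSC 17 to 34, where the median cell was still at 0. The ratio of LT-HSC 1 to 16 against LT-HSC 17 to 34 was -5.91 (-9.28 to -4.36), or -4.97 without LT-HSC 18, and against CMP it was -5.72 (-9.09 to -4.17) for LT-HSC 1 to 16 and 0.19 (-0.05 to 0.44) for LT-HSC 17 to 34. Thinned to 1 depth, 16.7% of LT-HSC and 54.5% of CMP had a count. In CMP the gene was spread over most cells, with a median of 7.03 CPM.

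Rad51ap1 (chr6:126923050-126939587) and Exo1 (chr1:175880581-175913489) had the same shape. Rad51ap1, which acts in strand invasion, had 1.47 CPM (0.476 to 3.42) in LT-HSC 1 to 16, 86.03 CPM (79.1 to 93.5) in LT-HSC 17 to 34 and 40.8 CPM (36.2 to 45.8) in CMP, in 5 of 16, 7 of 18 and 18 of 24 cells. Its highest cells were at 7.69, 410.2 and 219.9 CPM. LT-HSC 18 held 62.9% of the counts of its set, and without it the ratio within the gate was -4.51 in place of -5.74, and the ratio of LT-HSC 17 to 34 against CMP -0.15 in place of 1.08. Exo1, the exonuclease that resects ends, had 0.586 CPM (0.0710 to 2.12) in LT-HSC 1 to 16, 30.4 CPM (26.3 to 34.9) in LT-HSC 17 to 34 and 11.6 CPM (9.23 to 14.4) in CMP, in 2 of 16, 4 of 18 and 10 of 24 cells at up to 3.35, 142 and 55.2 CPM. Its ratio of LT-HSC 17 to 34 against CMP was 1.38, and 0.53 without LT-HSC 18. Without LT-HSC 18 its ratio within the gate was -4.52 in place of -5.38. For both genes the lower level of LT-HSC 1 to 16 held without that cell.

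Rad52 (chr6:119902698-119922828), which anneals single strands, had 0.293 CPM (0.00742 to 1.63) in LT-HSC 1 to 16, 29.8 CPM (25.7 to 34.2) in LT-HSC 17 to 34 and 9.06 CPM (6.98 to 11.6) in CMP, in 1 of 16, 8 of 18 and 13 of 24 cells at up to 14.05, 226 and 147 CPM. The ratio of LT-HSC 17 to 34 against CMP was 1.71 (1.30 to 2.15), or 0.91 without LT-HSC 32, and that of LT-HSC 1 to 16 against LT-HSC 17 to 34 -6.08 (-11.98 to -4.17), or -5.29 without it. In LT-HSC against CMP the ratio went from 1.11 to 0.29 when LT-HSC 32 was left out. The counts of the whole LT-HSC pool came from LT-HSC 17 to 34, since LT-HSC 1 to 16 held 1 count.

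Palb2 (chr7:122107262-122132985), the bridge between Brca1 and Brca2, ran the other way in the pooled values, at 24.9 CPM (19.9 to 30.8) in LT-HSC 1 to 16, 11.501 CPM (9.05 to 14.4) in LT-HSC 17 to 34 and 4.39 CPM (2.98 to 6.23) in CMP. Its counts came from 3 of 16, 3 of 18 and 10 of 24 cells, with the highest at 246, 82.6 and 32.3 CPM. LT-HSC 16 held 97.6% of the counts of LT-HSC 1 to 16 and LT-HSC 34 80% of those of LT-HSC 17 to 34. Without LT-HSC 16 the ratio of LT-HSC 1 to 16 against CMP turned from 2.49 to -2.45, and without LT-HSC 34 that of LT-HSC 17 to 34 from 1.38 to -0.74. The higher level of Palb2 in each LT-HSC set was thus that of 1 cell. The other recombination genes had few counts: Xrcc2 had 0.586, 3.37 and 4.81 CPM in the 3 pools, Xrcc3 17.01, 10.7 and 20.4 CPM, Rad54l 0, 1.99 and 4.25 CPM and Rad51c 0.880, 0 and 3.40 CPM.

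The 5 end joining genes ran in both directions. Between the gates 2 were higher in LT-HSC and 1 in CMP, against 22.7% and 28.1% of all genes, at a median log2 ratio of 0.06, and within the LT-HSC gate 1 was higher on each side, at -0.07. Xrcc6 (chr15:81987835-82040085), the Ku70 protein that holds broken ends, had 75.7 CPM (66.7 to 85.5) in LT-HSC 1 to 16, 79.7 CPM (73.04 to 86.9) in LT-HSC 17 to 34 and 76.5 CPM (70.1 to 83.2) in CMP. It was counted in 10 of 16, 14 of 18 and 23 of 24 cells, with medians of 11.4, 25.3 and 43.1 CPM and highest cells at 219, 399.8 and 476 CPM. Between the gates its ratio was 0.03 (-0.13 to 0.20), with the ratio of level pools, 0, inside its interval. It ran from -0.33 without LT-HSC 34 to 0.46 without CMP 18, and no leave-out took it to 2-fold in any of the 4 comparisons.

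Xrcc5 (chr1:72307421-72394952), the Ku80 partner of Ku70, was higher in LT-HSC. It had 45.5 CPM (38.6 to 53.2) in LT-HSC 1 to 16, 87.7 CPM (80.7 to 95.2) in LT-HSC 17 to 34 and 14.3 CPM (11.6 to 17.4) in CMP, in 8 of 16, 10 of 18 and 15 of 24 cells. Medians were 1.68, 2.65 and 2.90 CPM and highest cells 157, 375 and 146 CPM, so that most cells of every pool were low and the ranges overlap. LT-HSC 33 held 54.4% of the counts of its set. Its LT-HSC to CMP ratio was 2.35 (2.05 to 2.67), and 1.67 without that cell, and against CMP both LT-HSC sets were higher, at 1.67 and 2.61, and stayed at least 2-fold higher whichever cell was left out. Within the gate the ratio of -0.95 went to -0.01 without LT-HSC 33.

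Prkdc (chr16:15637866-15842235), the kinase that Ku recruits to DNA ends, had 12.6 CPM (9.13 to 16.98) in LT-HSC 1 to 16, 3.68 CPM (2.36 to 5.48) in LT-HSC 17 to 34 and 28.2 CPM (24.4 to 32.4) in CMP, the reverse of Xrcc5. Cells with a count numbered 6 of 16, 1 of 18 and 18 of 24 and the highest cells were at 94.4, 28.9 and 163 CPM. LT-HSC against CMP gave -2.06 (-2.48 to -1.66), and -1.20 without CMP 1, which held 50.3% of the CMP counts. In LT-HSC 17 to 34 all its counts were in LT-HSC 33. Within the gate its ratio of 1.76 was 0.79 without LT-HSC 6, and in LT-HSC 1 to 16 against CMP -1.15 became -0.30 without CMP 1. Xrcc4 (chr13:89774027-90089608), the scaffold of the end joining ligase, had 12.02 CPM (8.63 to 16.3) in LT-HSC 1 to 16, 6.75 CPM (4.90 to 9.06) in LT-HSC 17 to 34 and 8.21 CPM (6.24 to 10.6) in CMP, in 2 of 16, 3 of 18 and 14 of 24 cells at up to 164, 214 and 61.8 CPM. LT-HSC 6 held 97.6% of the counts of its set, and without it the ratio of LT-HSC 1 to 16 against CMP turned from 0.56 to -4.13. Lig4, that ligase, had 0.586, 2.91 and 0.425 CPM in the 3 pools, from 24 counts in all.

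**Figure D4:**
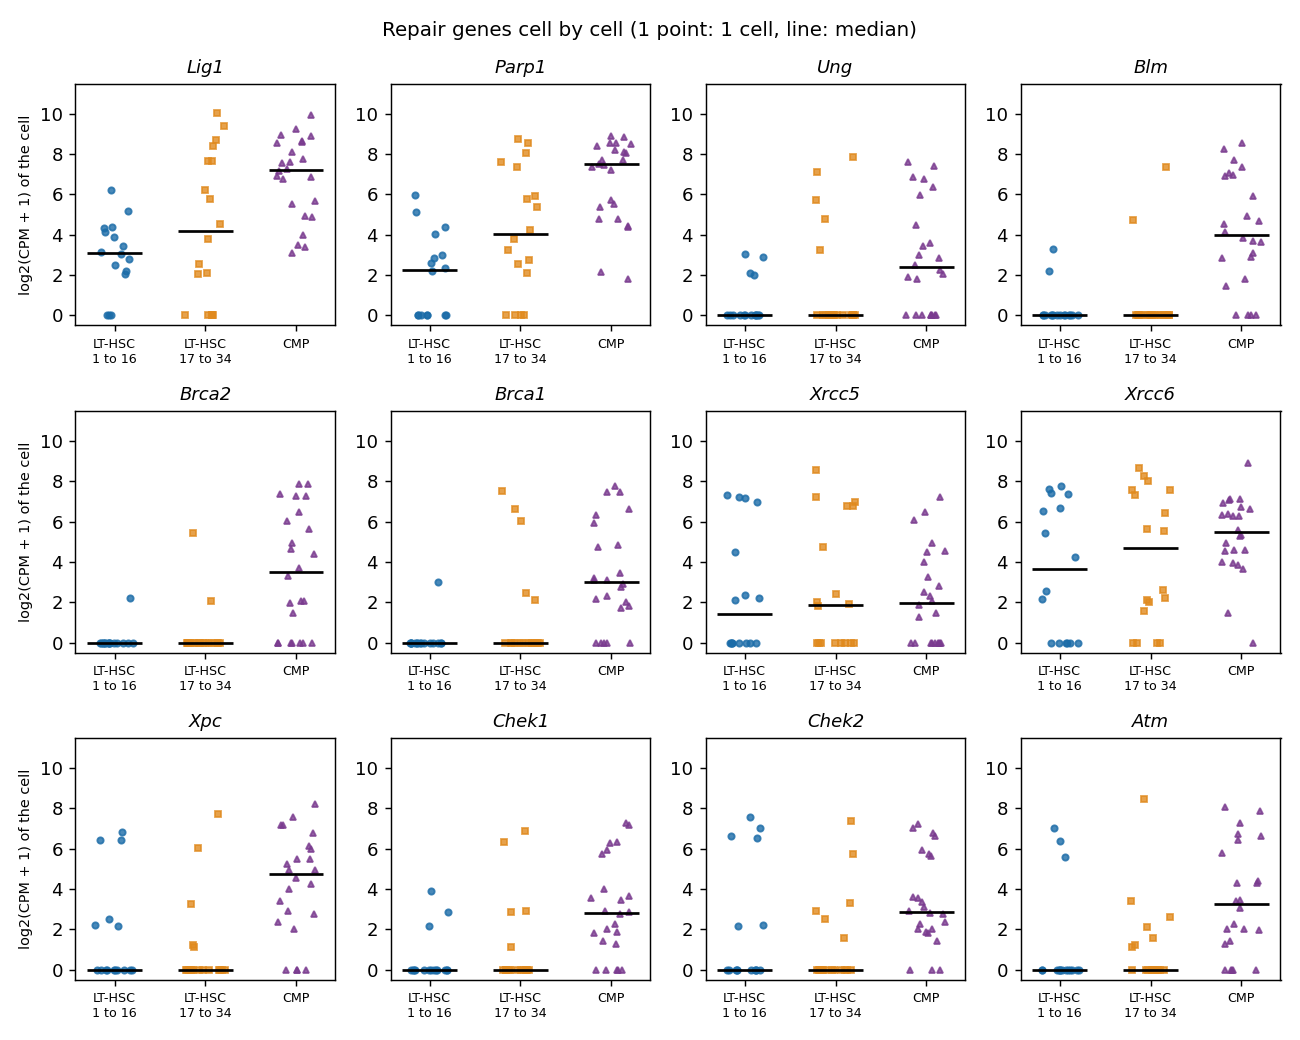
Level of 12 repair genes in every cell, as log2 of CPM with 1 CPM added, by pool, with the pool's median as a line. Lig1 and Parp1 were counted in all 24 CMP, Blm in 20 and Brca2 in 17, whereas most LT-HSC lie at 0 for all of the 12 but Lig1, Parp1, Xrcc6 and Xrcc5.

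The 2 mismatch repair genes were both at least 2-fold lower in LT-HSC 1 to 16 than in CMP, as were 37.1% of all genes. Msh6 (chr17:87975062-87990892), which recognises mismatches, had 23.2 CPM (18.3 to 28.9) in LT-HSC 1 to 16, 38.5 CPM (33.9 to 43.6) in LT-HSC 17 to 34 and 48 CPM (43.02 to 53.4) in CMP. It was counted in 3 of 16, 7 of 18 and 18 of 24 cells at up to 194, 146 and 214 CPM, with a CMP median of 11.48 CPM. The ratio of LT-HSC 1 to 16 against CMP was -1.04 (-1.42 to -0.69), just past 2-fold. It was -0.68 without CMP 19 and -2.80 without LT-HSC 15, so this call turned on single cells. Pms2 (chr5:143909964-143933968), which nicks the strand to be replaced, had 1.47 CPM (0.476 to 3.42) in LT-HSC 1 to 16, 0.153 CPM (0.00388 to 0.854) in LT-HSC 17 to 34 and 11.3 CPM (8.98 to 14.1) in CMP, in 2 of 16, 1 of 18 and 13 of 24 cells at up to 14.8, 8.50 and 82.5 CPM. Its ratio of LT-HSC against CMP was -4.12 (-5.72 to -3.04), and at least as low as -3.72 without any 1 cell, and the 13 CMP with counts stand against 3 of 34 LT-HSC.

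In nucleotide excision repair 1 of 3 genes was 2-fold higher in CMP than in LT-HSC, near the 28.1% of all genes. Xpc (chr6:91489305-91515888), which finds bulky damage across the genome, had 12.3 CPM (8.88 to 16.6) in LT-HSC 1 to 16, 12.3 CPM (9.73 to 15.3) in LT-HSC 17 to 34 and 64.1 CPM (58.4 to 70.3) in CMP. Its counts came from 6 of 16, 5 of 18 and 20 of 24 cells, with the highest at 112, 209.6 and 293 CPM and a CMP median of 26 CPM. The LT-HSC sets were alike, and the ratio of LT-HSC against CMP was -2.38 (-2.68 to -2.09), and it ran from -2.99 to -2.03 without single cells. Xpa (chr4:46155347-46196311), which checks the damage before the cut, had 60.99 CPM (52.99 to 69.9) in LT-HSC 1 to 16, 44.2 CPM (39.2 to 49.6) in LT-HSC 17 to 34 and 37.2 CPM (32.9 to 42.02) in CMP, in 8 of 16, 5 of 18 and 15 of 24 cells at up to 619, 548 and 286 CPM. LT-HSC 1 held 84.1% of the counts of its set, and without it the ratio of LT-HSC 1 to 16 against CMP turned from 0.71 to -1.80. Ercc1 (chr7:19344778-19356524), a subunit of the nuclease that cuts beside the lesion and also acts on crosslinks, had 22.3 CPM (17.6 to 27.9) in LT-HSC 1 to 16, 10.7 CPM (8.37 to 13.6) in LT-HSC 17 to 34 and 21.8 CPM (18.5 to 25.5) in CMP, in 2 of 16, 4 of 18 and 15 of 24 cells at up to 242, 69.95 and 113 CPM. Its ratio of LT-HSC 17 to 34 against CMP, -1.02, was -0.80 without CMP 10. LT-HSC 6 held 77.6% of its counts in LT-HSC 1 to 16, and without it the ratio within the gate turned from 1.05 to -0.97.

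Of the 6 base excision and single-strand break repair genes, CMP had the higher level for 4 and LT-HSC 1 to 16 for 2. The shares of all genes were 37.1% and 21.9%, and the list's median log2 ratio was -2.67. Within the gate, Lig1, Parp1, Ung and Xrcc1 were higher in LT-HSC 17 to 34 and Lig3 alone in LT-HSC 1 to 16. The shares of all genes there were 29.5% and 26.8%, and the median over the 6 was -2.94. Lig1 (chr7:13277283-13311433) seals nicks, most of all those between Okazaki fragments during replication. It had 14.4 CPM (10.6 to 19) in LT-HSC 1 to 16, 315 CPM (302 to 329) in LT-HSC 17 to 34 and 218 CPM (207 to 229) in CMP. Single cells ran from 0 to 74.2 CPM (median 7.42) in LT-HSC 1 to 16, from 0 to 1067 CPM (median 17.4) in LT-HSC 17 to 34 and from 7.40 to 998 CPM (median 148) in CMP. It was counted in 13 of 16, 13 of 18 and 24 of 24 cells. Every LT-HSC 1 to 16 cell was thus below the median CMP, while LT-HSC 17 to 34 covered the whole CMP range. The ratio within the gate was -4.44 (-4.89 to -4.05), and at most -3.82 without any 1 cell. LT-HSC 33 held 43.1% of the counts of LT-HSC 17 to 34, and without it the ratio of that set against CMP went from 0.53 to -0.08.

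Parp1 (chr1:180568924-180601254), the sensor of strand breaks, was lowest in LT-HSC 1 to 16 and highest in CMP, at 10.3 CPM (7.15 to 14.3) in LT-HSC 1 to 16, 102 CPM (94.2 to 109.9) in LT-HSC 17 to 34 and 192 CPM (182 to 202) in CMP. LT-HSC 1 to 16 ran from 0 to 60.8 CPM (median 3.84), LT-HSC 17 to 34 from 0 to 432 (median 15.2) and CMP from 2.48 to 482 (median 179). Cells with a count numbered 9 of 16, 14 of 18 and 24 of 24. Between the gates its ratio was -1.45 (-1.58 to -1.31) and that within the gate -3.29 (-3.84 to -2.82). No single cell carried these values, which ran from -1.70 to -1.29 and from -3.86 to -3.08 as single cells were left out.

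Ung (chr5:114130386-114139323), which removes uracil from DNA, had 1.47 CPM (0.476 to 3.42) in LT-HSC 1 to 16, 51.4 CPM (46.02 to 57.2) in LT-HSC 17 to 34 and 33.4 CPM (29.3 to 37.96) in CMP, in 4 of 16, 5 of 18 and 16 of 24 cells at up to 7.14, 234 and 195 CPM. LT-HSC 34 held 50.7% of the counts of its set, and without it the ratio within the gate was -4.15 in place of -5.00. Xrcc1 (chr7:24546289-24573440), the scaffold of single-strand break repair, had 15.5 CPM (11.6 to 20.3) in LT-HSC 1 to 16, 93.7 CPM (86.4 to 101) in LT-HSC 17 to 34 and 42.1 CPM (37.4 to 47.1) in CMP, in 3 of 16, 9 of 18 and 19 of 24 cells at up to 215, 503 and 125 CPM. Its median cell was at 0.688 CPM in LT-HSC 17 to 34 and 16.97 CPM in CMP, so the higher pooled level of LT-HSC 17 to 34 came from its upper cells. The ratio of LT-HSC 17 to 34 against CMP was 1.15 (0.95 to 1.36), and less than 2-fold, 0.78, without LT-HSC 30. Within the gate it was -2.58 (-3.03 to -2.19), and -2.21 without that cell.

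The other 2 genes of this group were higher in LT-HSC in the pooled values. Ogg1 (chr6:113326972-113335068), which removes oxidised guanine, had 6.16 CPM (3.81 to 9.41) in LT-HSC 1 to 16, 4.91 CPM (3.36 to 6.93) in LT-HSC 17 to 34 and 2.12 CPM (1.19 to 3.503) in CMP, in 4 of 16, 6 of 18 and 4 of 24 cells at up to 36.9, 28.96 and 21.7 CPM. Its LT-HSC to CMP ratio was 1.30 (0.48 to 2.26), and less than 2-fold, 0.90, without LT-HSC 21. Its counts were few, 21 in LT-HSC 1 to 16, 32 in LT-HSC 17 to 34 and 15 in CMP, and most cells of every pool were at 0. Lig3 (chr11:82781108-82804274), the ligase partner of Xrcc1, had 26.1 CPM (20.96 to 32.1) in LT-HSC 1 to 16, no count (at most 0.566 CPM) in LT-HSC 17 to 34 and 1.84 CPM (0.980 to 3.15) in CMP. LT-HSC 10 held 79.8% of the counts of its set, at 219 CPM, and without it the ratio of LT-HSC against CMP went from 2.24 to 0.01. Compared with LT-HSC 17 to 34, where none of the 18 cells had a count, Lig3 in LT-HSC 1 to 16 was at least 56.7-fold higher, and 3 of 16 cells carried that value. Without LT-HSC 10 it was left with 18 counts in the other 15 cells.

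Of the 4 checkpoint kinases, 1 was 2-fold higher in CMP than in LT-HSC (25%, near the 28.1% of all genes). In LT-HSC 0 were higher, against 22.7% of all genes, and the median log2 ratio was -0.76. Atm (chr9:53439149-53536740), which signals double-strand breaks, had 20.5 CPM (16 to 25.9) in LT-HSC 1 to 16, 4.60 CPM (3.10 to 6.57) in LT-HSC 17 to 34 and 49.98 CPM (44.9 to 55.5) in CMP, in 3 of 16, 7 of 18 and 19 of 24 cells at up to 129, 355 and 272 CPM. The CMP median was 8.59 CPM. LT-HSC against CMP gave -2.31 (-2.65 to -1.99), and -1.82 without CMP 19. Within the gate it was 2.14 (1.52 to 2.83), and 1.24 without LT-HSC 12, but -0.37 with the mean of each cell's CPM in place of pooled counts, so its direction turned on how cells were weighted. Atr (chr9:95857597-95951781), which signals stalled forks, had 19.6 CPM (15.2 to 24.95) in LT-HSC 1 to 16, 17.3 CPM (14.3 to 20.8) in LT-HSC 17 to 34 and 26.3 CPM (22.7 to 30.4) in CMP, in 4 of 16, 4 of 18 and 18 of 24 cells at up to 172, 296 and 149.7 CPM, and differed by less than 2-fold in all 4 comparisons. Between the gates its ratio was -0.54, and ran from -1.19 to 0.05 without single cells.

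Chek1 (chr9:36708482-36727065) and Chek2 (chr5:110839979-110874145), the kinases that pass on the signals of Atr and Atm, differed between the LT-HSC sets in opposite directions. Chek1 had 0.880 CPM (0.181 to 2.57) in LT-HSC 1 to 16, 22.5 CPM (19.05 to 26.5) in LT-HSC 17 to 34 and 30.02 CPM (26.1 to 34.3) in CMP, in 3 of 16, 5 of 18 and 19 of 24 cells at up to 13.96, 119 and 152 CPM. LT-HSC 18 held 69.4% of the counts of LT-HSC 17 to 34, and the ratio within the gate was -4.46 (-6.97 to -3.10) with that cell and -2.97 without it. Chek2 had 37.8 CPM (31.6 to 44.9) in LT-HSC 1 to 16, 11.8 CPM (9.32 to 14.8) in LT-HSC 17 to 34 and 29.9 CPM (25.98 to 34.2) in CMP, in 6 of 16, 6 of 18 and 21 of 24 cells at up to 191, 164 and 147 CPM. Its ratio within the gate was 1.68 (1.26 to 2.11), and just under 2-fold, 0.97, without LT-HSC 15. The ratio of LT-HSC 1 to 16 against CMP, 0.34, turned to -0.36 without the same cell. In CMP both were found in most cells, with medians of 6.02 CPM for Chek1 and 6.29 CPM for Chek2.

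The order of the 3 pools can be read for 41 of the genes. LT-HSC 1 to 16 alone had the lowest level for 19 of them (46.3%, against 38.5% of genes with as many counts), Fanca was tied at 0 in both LT-HSC sets, and CMP had the highest level for 21 (51.2%, against 41.4%). Both shares are within 10 percentage points of those of genes in general. A wider set of 127 further repair genes, of which 125 had a count, was scored in the same way, with no test against the 42. In LT-HSC against CMP 18 of 119 were higher in LT-HSC (15.1%) and 33 in CMP (27.7%), against 22.7% and 28.1% of all genes, at a median of -0.38, and within the LT-HSC gate LT-HSC 1 to 16 had the higher level for 24 of 109 and LT-HSC 17 to 34 for 42 (38.5%, against 29.5% of all genes), at -0.61. Against CMP, LT-HSC 1 to 16 had the higher level for 15 of 118 and CMP for 51 (43.2%, against 37.1%), at -0.75, and LT-HSC 17 to 34 for 17 of 117 and CMP for 32 (27.4%, against 34%), at -0.18.

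Some of these further genes stood out by the size of their ratio with at least 50 counts. Mutyh, a partner of Ogg1 in clearing oxidised guanine, had no count in 34 LT-HSC and 10.6 CPM in CMP, from 8 of 24 cells, at least 35.2-fold higher. Rad17, the loader of a checkpoint clamp, had 2.52 CPM in LT-HSC and 48.7 CPM in CMP, a log2 ratio of -4.25, and -4.01 without CMP 1. Ercc6, of transcription-coupled repair, was at -3.61, and at -2.74 without CMP 18. Higher in LT-HSC were Mpg, which removes alkylated bases (3.52, and 3.06 without LT-HSC 16), and Uvssa, of transcription-coupled repair (3.47, and 2.97 without LT-HSC 28). Fan1, a nuclease of crosslink repair, was at 3.36, but all of its LT-HSC counts were in LT-HSC 16, and without that cell it had 5 counts in all.

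In the separate comparisons of each LT-HSC set the extremes were partly other genes. Against CMP, LT-HSC 1 to 16 had no count of Apex1, Rad54b and Ercc5, each of them higher in CMP, by at least 17.7-fold, 16.3-fold and 14-fold in turn, and had Smug1 at 3.89 (2.90 without LT-HSC 6), Mpg at 4.21 (3.26 without LT-HSC 16) and Fan1 at 4.90 (-2.26 without LT-HSC 16) on the log2 scale. LT-HSC 17 to 34 had Rad17 at -7.73 and Ube2t, the enzyme that hands ubiquitin to the core complex, at -5.98, no count of Mutyh, and Alkbh2 at 2.90 (2.16 without LT-HSC 32), Mpg at 2.96 (1.99 without LT-HSC 30) and Uvssa at 3.35 (2.37 without LT-HSC 28). Within the gate, Bard1, the partner of Brca1, was at -7.16, and at -6.29 without LT-HSC 33, and LT-HSC 17 to 34 had at least 39-fold more Poll and 30-fold more Rad54b, of which LT-HSC 33 held 77.9% of the counts. Mre11a, which starts resection, was at 6.25 in favour of LT-HSC 1 to 16, and at 5.33 without LT-HSC 10, where Fan1 (in 1 cell) was at least 50.4-fold and Smug1 at least 52.3-fold higher.

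Cell cycle genes moved along with these values. In LT-HSC 1 to 16 against CMP, 38 of 43 S phase genes with enough counts were higher in CMP and 0 in LT-HSC 1 to 16. The shares of all genes were 37.1% and 21.9%, and the median log2 ratio of the list was -2.20. In LT-HSC 17 to 34 against CMP 5 of 44 were higher in each direction, at -0.09, against 34% of all genes in CMP and 20% in the stem cells. Within the gate LT-HSC 17 to 34 had the higher level for 38 of 43 and LT-HSC 1 to 16 for 0, at -2.06, against 29.5% and 26.8% of all genes. Of the G2 and M phase genes, 52 of 58 were higher in CMP than in LT-HSC 1 to 16 (-3.46, or -3.44 with uncounted genes at their bound), against 37.1% of all genes. Compared with LT-HSC 17 to 34, 25 of 58 were higher in CMP (-0.80), against 34% of all genes. S phase genes took a median of 10.7, 29.4 and 43.4 per 10000 counts of a cell in LT-HSC 1 to 16, LT-HSC 17 to 34 and CMP, and G2 and M phase genes 7.57, 9.64 and 34.1.

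Across single cells the repair share and the S phase share moved together in 2 of the pools. Pearson's r was 0.77 over 24 CMP (Spearman's rho 0.79), 0.72 over 18 LT-HSC 17 to 34 (0.56) and 0.28 over 16 LT-HSC 1 to 16 (0.36). With the G2 and M phase share r was -0.13 in CMP (rho -0.08), 0.35 in LT-HSC 17 to 34 (0.67), and LT-HSC 1 to 16 had 0.35 too (0.18). Both shares of a cell come from 1 library and have 1 total in common, and in LT-HSC 17 to 34 the repair share also followed the total count (r 0.66, rho 0.50). The part of cycling, depth and sex in the differences between pools was not tested.

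**Figure D5:**
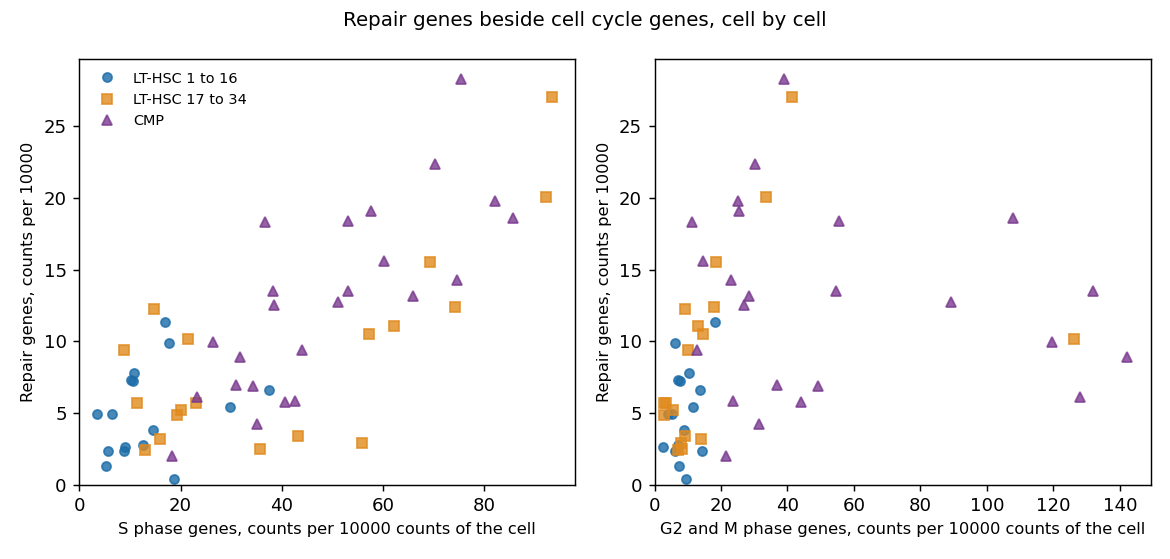
Share of counts of the 42 repair genes in each cell (per 10000) against the share of S phase genes and against that of G2 and M phase genes (both per 10000), coloured by pool. In the first panel CMP and LT-HSC 17 to 34 run upward together (r 0.77 and 0.72), and in the second the CMP show no such slope (r -0.13).

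The position of the genes limits some values. Exons of 23 of the 42 share bases with another gene, in 21 cases with one on the other strand, among them Fanca with Zfp276, Fanci with Polg, Fancl with Vrk2, Ercc1 with Cd3eap, Lig1 with Zswim9, Lig3 with Rffl and Xrcc6 with Desi1. Whether reads were counted by strand is not given in the sources used here, so reads of such a pair cannot be told apart.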

How the data were processed

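Single bone marrow cells were sorted by surface markers and their RNA was copied by a modified Smart-seq2 protocol with 3' end capture, per the labels' protocols. The submitters' processing notes name TopHat2 2.0.12, HTSeq, Seurat 2.0 and the mouse build mm10. The deposited table holds whole-number counts of the authors, 58 columns of 1 cell each against rows of gene symbols. Whether these are reads or molecules, and whether strand was used, is not given in the sources used here, and amplified reads would make the true error larger than the intervals.

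Columns were matched to cells and gates by their titles, and no cell or gene was removed. A few genes are not reported here. Counts were summed over a pool and divided by its total to give CPM with exact 95% Poisson intervals. Log2 ratios have 0.5 added to each count and exact conditional binomial intervals. A gene without a count in 1 pool was set against 3 counts over that pool and the fold written as "at least". Cell cycle, marker and further repair lists were scored in the same way. Thinning drew 97978 counts from each of the 52 cells with as many. The calculation was tested on simulated counts. Each gate is 1 sample, so no test was made.

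The repair genes and all lists were chosen with earlier results of these data known. Full values are given for genes with at least 50 counts that were among the 4 largest absolute ratios of their pathway, in LT-HSC against CMP or within the LT-HSC gate, and of the further repair genes and p53 targets the 3 highest and 3 lowest ratios with at least 50 counts are named. Promoters came from RefSeq (GRCm38.p6), matched by symbol, and positions from GENCODE M21. Alternatives were other scalings, added counts, count minimums, depths and sets of cells, and leaving out each cell. Python 3.11.15, NumPy 2.4.6, pandas 2.3.3, SciPy 1.17.1 and Matplotlib 3.10.9 were used.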

Additional observations from a re-analysis of the deposited data

How the results depend on the processing

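No paired analysis was possible because cell numbers name single cells, each gate is 1 sample and no test was made. With the mean of each cell's CPM in place of pooled counts, the median log2 ratio of the repair genes was -1.23 in LT-HSC against CMP and -1.02 in LT-HSC 17 to 34 against CMP, and Atm within the LT-HSC gate turned to -0.37. With cells thinned to 1 depth, the median in LT-HSC 1 to 16 against CMP was -1.0. Of 33 genes 17 were higher in CMP, against 33.3% of all genes. In LT-HSC 17 to 34 against CMP the median was -1.11. Of 32 genes 5 were higher in LT-HSC 17 to 34, against 18.9% of all genes. Within the gate 10 of 25 genes were higher in LT-HSC 17 to 34, against 26.9% of all genes. Palb2 in LT-HSC 17 to 34 against CMP turned to -0.10, and CMP had a median of 16 genes with a count. With a minimum of 1 count the median within the gate was -0.16. Of 41 genes 11 were higher in LT-HSC 1 to 16, against 30.9% of all genes. A minimum of 100 counts left 31 genes when all LT-HSC were compared with CMP. Of those, 10 were higher in CMP, beside 23.8% of genes of any kind. For stem cells 1 to 16 it was 17 of 27 (beside 32.7%). For stem cells 17 to 34 it was 10 of 30 (beside 26.8%). Of 22 genes compared inside the gate, 10 were higher in cells 17 to 34 (beside 27.3%) and 4 in cells 1 to 16 (beside 19.4%).

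Against CMP 1 and CMP 2 alone, the medians were 0.67 for LT-HSC, -0.19 for LT-HSC 1 to 16 and 0.96 for LT-HSC 17 to 34. Of 36 genes 17 were higher in LT-HSC and 8 in CMP, against 48.8% and 18.9% of all genes. For LT-HSC 1 to 16 the counts were 11 and 11 of 26, against 43.3% and 25.2% of all genes. For LT-HSC 17 to 34 they were 17 and 7 of 34, against 44.6% and 21.5%. The genes that turned were Fancg (0.29), Brca2 (0.47), Brip1 (1.30) and Atm (2.38) for LT-HSC, Atm (3.41) for LT-HSC 1 to 16, and Brca2 (1.04), Brip1 (1.75), Exo1 (-0.047), Ercc1 (1.10), Xrcc1 (-0.044) and Atm (1.27) for LT-HSC 17 to 34. As single cells were left out, the medians ran from -0.85 to -0.29 in LT-HSC against CMP, from -2.71 to -1.79 in LT-HSC 1 to 16 against CMP, from -0.82 to -0.41 in LT-HSC 17 to 34 against CMP and from -1.59 (without LT-HSC 16) to -0.26 (without LT-HSC 33) within the gate. The direction turned on 1 cell for 12 of 41 genes in LT-HSC against CMP and 10 of 40 in LT-HSC 1 to 16 against CMP. It did so for 15 of 40 in LT-HSC 17 to 34 against CMP and 16 of 34 within the gate. This was counted for the repair genes alone. Among those given in full that differed at least 2-fold, the genes that turned ran from -2.45 to 3.33 (Palb2) in LT-HSC 1 to 16 against CMP. In LT-HSC 17 to 34 against CMP they ran from -0.71 to 2.25 (Fancc), -0.74 to 2.21 (Palb2) and -0.15 to 1.61 (Rad51ap1). Within the gate they ran from -3.01 to 5.08 (Fanci), -5.13 to 0.74 (Brca2), -3.83 to 3.23 (Palb2), -2.35 to 0.087 (Brip1) and -0.97 to 2.74 (Ercc1). Counting a gene in a cell from 2 counts on gave medians of 4.5 genes in LT-HSC 1 to 16 and 15 in CMP, and from 10 counts on 2.5, 3 and 6.5 in LT-HSC 1 to 16, LT-HSC 17 to 34 and CMP. The cause of these shifts was not tested. Adding 1 count in place of 0.5 and leaving ribosomal protein genes out of the total moved none of the 128 single-gene ratios beyond its interval, leaving out the 6 shallowest cells 2 and median-of-ratios scaling 5.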

Other observations

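Targets of p53, the factor that answers DNA damage through Atm and Chek2, gave values outside the comparisons above. Of 18 with enough counts, 7 were higher in LT-HSC (38.9%) and 4 in CMP (22.2%), against 22.7% and 28.1% of all genes, at a median log2 ratio of -0.23. Perp, a cell adhesion protein, was at -5.06, and at -3.32 without CMP 16, Trp53inp1, a cofactor of p53, at -3.17, and at -2.37 without CMP 3, and Btg2, an inhibitor of proliferation, at -2.16, and at -1.51 without CMP 20. At the high end, Fas, a death receptor, was at 3.61, and still at 2.31 without LT-HSC 17. Tnfrsf10b, another death receptor, was at 2.75, but at 0.60 without LT-HSC 10, and Zmat3 at 2.51, but at -2.51 without LT-HSC 18. Bbc3 (39 counts in LT-HSC and 3 in CMP), Eda2r (37 and 0) and Phlda3 (19 and 1), named after their values were seen, were also higher in LT-HSC but had under 50 counts. In LT-HSC 1 to 16, Cdkn1a, the inhibitor that halts the cycle, had 7.92 CPM against 69.9 CPM in CMP, a ratio of -3.12, and -2.63 without CMP 4.

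LT-HSC 16 held all 79 counts of Fan1 in the LT-HSC gate and 97.6% of the Palb2 counts of LT-HSC 1 to 16. Both genes were named after their values were seen. Of the 22 Fanconi and homologous recombination genes, only 2 had any count in this cell, Palb2 among them. In LT-HSC 1 to 16, 47.7% of all genes with at least 20 counts had most of them in a single cell.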
